A study of Arabidopsis thaliana with 36 samples.

Results

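Camalexin, the main phytoalexin of Arabidopsis, and the indole glucosinolates are defence compounds made from tryptophan, and they share their first steps. Followed here are 10 genes of the 2 pathways, out of 33557 genes in the deposited tables. They were chosen by gene identifier for their roles, with earlier results of these data known. They are CYP79B2 (AT4G39950) and CYP79B3 (AT2G22330) at the entry, CYP71A12 (AT2G30750), CYP71A13 (AT2G30770) and PAD3 (AT3G26830) on the camalexin branch, CYP83B1 (AT4G31500) and CYP81F2 (AT5G57220) on the glucosinolate branch, and the transcription factors MYB34 (AT5G60890), MYB51 (AT1G18570) and MYB122 (AT1G74080). The study compared 2 accessions of Arabidopsis thaliana and their 2 reciprocal hybrids after infiltration of leaves with Pst DC3000, a virulent strain of Pseudomonas syringae. The groups were the hybrid Fsc, from a Sei-0 mother and a Col-0 father, the hybrid Fcs, from a Col-0 mother and a Sei-0 father, and the inbred parents Sei-0 and Col-0. Each was sampled at 1, 2 and 3 days post inoculation (dpi), which gave 12 groups of 3 mRNA-seq libraries, 36 in all. Plants of 4 weeks, grown at 22 °C with an 8 h light period according to the labels, were used, and about 30 leaves were pooled per sample. All 12 groups had received bacteria at 100000 c.f.u. per ml. No uninfected leaves were analysed here, so no value below is an induction by the bacterium.

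Both routes start when CYP79B2 and CYP79B3 oxidise tryptophan to indole-3-acetaldoxime. CYP71A12 and CYP71A13 turn this aldoxime into indole-3-acetonitrile, and PAD3, a multifunctional P450 also known as CYP71B15, closes the ring of camalexin at the end of the branch. CYP83B1 instead oxidises the aldoxime towards the indole glucosinolate core, and CYP81F2 hydroxylates the indole ring of the finished glucosinolate, a step needed for glucosinolate-based defence against fungi and for callose deposition after flagellin. The MYB factors activate the shared and the glucosinolate genes. WRKY33, a factor that binds the W-box in DNA, activates CYP71A13 and PAD3 after infection.

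The deposited measurement is 1 FPKM value, fragments scaled by transcript length and by library size, for each group and day, pooled by the authors' software over 3 libraries. With no value per library, no value below carries an error, and no difference was tested. A difference was counted as higher or lower when it reached at least 2-fold as (FPKM + 1) over (FPKM + 1), differences under that fold are given as values, and each count over the 10 genes stands beside the percentage of all genes that reached the same fold. All genes means those with an FPKM of at least 1 in at least 1 of the 4 groups of a day, 18538 on the first day, then 18443 and 18525. All 10 genes were among them on each day. Each day has its own table with its own normalization, and levels should not be compared between days. In a pooled leaf sample, fewer cells that express a gene and less RNA per cell cannot be told apart.

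The leaf label could be checked against marker genes. RBCS1A, the small subunit of Rubisco, lay between 4916 and 17570 FPKM over the 12 groups, LHCB2.1, a chlorophyll-binding protein, between 30.8 and 2233 and CA1, a carbonic anhydrase, between 70.1 and 907, while IRT1 of root, AP1 of flower, CRA1 and SESA1 of seed and GL1 of trichomes were at or near 0. AG of flower lay between 0.131 and 0.431, BGLU23, a root glucosidase, between 0.841 and 23.9, SUC2 of phloem companion cells between 51.6 and 119, and FAMA of guard cells between 4.82 and 14. The leaf mesophyll markers moved with the groups. At 1 dpi all 3 were lower in both hybrids than in both parents, with RBCS1A at 7399 in Fsc and 4916 in Fcs, against 9976 in Sei-0 and 17570 in Col-0, LHCB2.1 at 232 and 359 against 540 and 2233, and CA1 at 144 and 70.1 against 258 and 758. At 3 dpi RBCS1A had 13835 in Fsc and 11436 in Fcs, against 8045 in Sei-0 and 8307 in Col-0, CA1 had 907 and 447 against 161 and 319, and LHCB2.1 had 128 and 632 against 508 and 1389. Their part in the differences below was not tested. The sum of FPKM per group lay between 935587 and 1192353, and the depth of the libraries cannot be read from these files. Genes of the circadian clock differed between the groups at 1 dpi. CCA1, a morning gene, had 6.73 in Fsc and 15.6 in Fcs, against 54.3 in Sei-0 and 115 in Col-0, and LHY, its partner, had 4.87 and 9.56 against 34.7 and 51.7. The evening genes ran the other way at 1 dpi, with TOC1 at 46.8 in Fsc and 27.5 in Fcs against 11.7 in Sei-0 and 6.41 in Col-0, GI at 32.8 and 19.9 against 10.6 and 8.98, and LUX at 23 and 7.76 against 2.26 and 1.20. At 2 and 3 dpi the morning genes were again lower, and the evening genes higher, in both hybrids than in both parents. At 3 dpi CCA1 had 1.10 in Fsc and 7.16 in Fcs, against 22.0 in Sei-0 and 62.3 in Col-0. LUX had 86.9 in Fsc and 24.5 in Fcs at 3 dpi, against 6.72 in Sei-0 and 2.17 in Col-0. Whether time of day or clock phase has a part in the differences below was not tested on any day.

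CYP71A12 and CYP71A13 are near copies on chromosome 2, and how far their reads can be told apart bears on every value given for them. In TAIR10 coordinates, CYP71A12 spans chr2:13099336-13101413 and CYP71A13 chr2:13109794-13112011, both on the minus strand. In the RefSeq TAIR10.1 annotation, whose gene bounds differ, the 2 genes lie 8538 bases apart. Their coding sequences, read from the RefSeq TAIR10.1 genome, are identical at 90.4% of 1494 aligned bases, and 0.692% of the 50-base words of CYP71A12 also occur in CYP71A13. The longest run that they share is 59 bases, starting at coding base 592 of both genes, and it is shown because a read inside it names neither gene.
Shared by CYP71A12 and CYP71A13: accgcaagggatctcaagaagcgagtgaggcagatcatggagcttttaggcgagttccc
Outside such runs the letters differ, and how the aligner split reads between the copies was not tested. In the TAIR10.1 annotation CYP71A13 also overlaps AT2G30766, and the strand setting of the libraries is not given in the sources used here. The coding sequences of CYP79B2 and CYP79B3 are identical at 81.1% of 1692 aligned bases, those of MYB51 and MYB122 at 77.2% of 963 and those of MYB34 and MYB51 at 71.2% of 862, and none of these 3 pairs shares a run of 50 bases.

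The 250 bases before each gene start were read from the same genome. The start was the more upstream of the RefSeq and the deposited start where these lay within 500 bases, and otherwise the RefSeq start. The windows were searched for the letters TTGAC, the core of the W-box, on both strands, where the reverse strand reads GTCAA. Of the 10 genes, 4 held the core, each of them 2 times, and 6 did not. Over 26686 windows of the same length in the genome, 45.0% held at least 1 core and 14.2% at least 2. The 4 windows that held the core are shown. They belong to genes for which the hybrids at 1 dpi exceeded both parents by any amount. MYB122, the other gene that did, held no core. No link between core and level was tested. The share of windows with a core among all genes whose hybrids exceeded both parents was not computed. Each of the 4 windows is printed 5′ to 3′ up to the base before the gene start, with the core in capitals.
CYP71A12: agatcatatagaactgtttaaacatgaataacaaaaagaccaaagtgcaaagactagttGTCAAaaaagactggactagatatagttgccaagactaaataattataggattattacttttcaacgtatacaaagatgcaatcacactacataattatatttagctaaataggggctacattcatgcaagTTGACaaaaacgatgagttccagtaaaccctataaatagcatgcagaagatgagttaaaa
CYP71A13: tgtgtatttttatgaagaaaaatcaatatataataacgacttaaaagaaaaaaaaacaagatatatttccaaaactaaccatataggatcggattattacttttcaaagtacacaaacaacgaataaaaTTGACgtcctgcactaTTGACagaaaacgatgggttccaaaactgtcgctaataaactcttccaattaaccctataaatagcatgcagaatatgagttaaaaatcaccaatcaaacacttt
CYP81F2: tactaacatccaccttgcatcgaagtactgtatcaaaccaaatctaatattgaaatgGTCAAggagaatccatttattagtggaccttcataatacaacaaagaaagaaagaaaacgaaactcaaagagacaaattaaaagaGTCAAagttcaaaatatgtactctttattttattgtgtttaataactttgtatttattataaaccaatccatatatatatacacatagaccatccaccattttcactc
MYB51: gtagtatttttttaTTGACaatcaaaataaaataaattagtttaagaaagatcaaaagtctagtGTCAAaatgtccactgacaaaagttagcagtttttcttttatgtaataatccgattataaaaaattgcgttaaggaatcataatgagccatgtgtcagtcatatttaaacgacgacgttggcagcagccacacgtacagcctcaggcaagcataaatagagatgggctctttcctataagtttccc
In TAIR10.1 these are chr2:13101414-13101663 and chr2:13112012-13112261 on the minus strand, chr5:23187590-23187839 and chr1:6389149-6389398 on the plus strand. The first bases of the cores lie at -191 and -60 in CYP71A12, -121 and -105 in CYP71A13, -193 and -108 in CYP81F2, and -236 and -186 in MYB51, counted back from the gene start. A match is a run of letters and not a measured binding site. The bases beside the core were not considered, so a match need not be a full W-box. The windows of PAD3, CYP79B2, CYP79B3, CYP83B1, MYB34 and MYB122 hold no core within these 250 bases.

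The windows of CYP79B2 and CYP79B3 share a stretch of 22 bases, in capitals below, shown because the 2 genes took different courses in the hybrids although they encode the same step.
CYP79B2: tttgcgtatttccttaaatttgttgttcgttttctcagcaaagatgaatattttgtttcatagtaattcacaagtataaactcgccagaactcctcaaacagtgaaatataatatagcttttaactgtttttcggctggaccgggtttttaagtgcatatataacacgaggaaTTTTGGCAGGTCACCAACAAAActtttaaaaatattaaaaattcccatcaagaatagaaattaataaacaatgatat
CYP79B3: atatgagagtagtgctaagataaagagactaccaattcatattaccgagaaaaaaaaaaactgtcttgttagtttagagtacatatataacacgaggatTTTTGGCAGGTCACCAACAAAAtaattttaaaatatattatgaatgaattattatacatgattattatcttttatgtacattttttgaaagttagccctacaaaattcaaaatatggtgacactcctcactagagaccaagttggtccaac
They are chr4:18524792-18525041 and chr2:9488163-9488412 in TAIR10.1, both on the plus strand. The shared stretch starts at -77 in CYP79B2 and at -151 in CYP79B3.

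The first comparison is between the parents. At 1 dpi Sei-0 was at least 2-fold higher than Col-0 in 7 of the 10 genes, against 6.72% of all genes. These were CYP79B2, CYP79B3, CYP71A13, PAD3, CYP81F2, MYB51 and MYB122. PAD3 differed by 11.6-fold, CYP71A13 by 6.25-fold, CYP81F2 by 4.58-fold and MYB122 by 3.49-fold, and the remaining 3 of the 7 by 2.41-fold to 2.77-fold. CYP71A12 was 1.77-fold and CYP83B1 1.54-fold higher in Sei-0, short of the fold. MYB34 alone was lower in Sei-0, at 35.8 against 42.9 in Col-0. The difference was found in fewer of the genes on later days, with 5 of 10 at 2 dpi, against 5.54% of all genes, and 3 of 10 at 3 dpi, against 4.54%. The 5 genes were CYP79B2, PAD3, CYP81F2, MYB51 and MYB122, and the 3 genes were PAD3, CYP81F2 and MYB122, at 4.65-fold, 4.32-fold and 2.53-fold. No member was at least 2-fold lower in Sei-0 than in Col-0 on any day, against 8.21% (1 dpi), 7.42% (2 dpi) and 6.95% (3 dpi) of all genes. The median log2 ratio of Sei-0 to Col-0 over the 10 genes was 1.38 at 1 dpi, 1.03 at 2 dpi and 0.38 at 3 dpi, while over all genes it lay between -0.0049 and 0.011.

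The second comparison sets both hybrids against both parents. At 1 dpi 1 of the 10 genes, CYP71A12, was at least 2-fold above both parents in both hybrids, against 1.71% of all genes, and 1, MYB34, was at least 2-fold below both, against 1.67%. At 2 dpi none was above, against 0.450%, and MYB34 was again below, against 0.770%. At 3 dpi none was above, against 0.955%, and CYP71A13 was below, against 2.39%. Counted by any amount, 5 of the 10 genes exceeded both parents in both hybrids on the first day (24.6% of all genes), 2 at 2 dpi (18.8%) and 1 at 3 dpi (30.3%). Below both parents lay 2 at 1 dpi (25.6%), 2 at 2 dpi (20.5%) and 5 at 3 dpi (31.3%). The plot of FPKM by group and day shows each of these values.

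**Figure D1:**
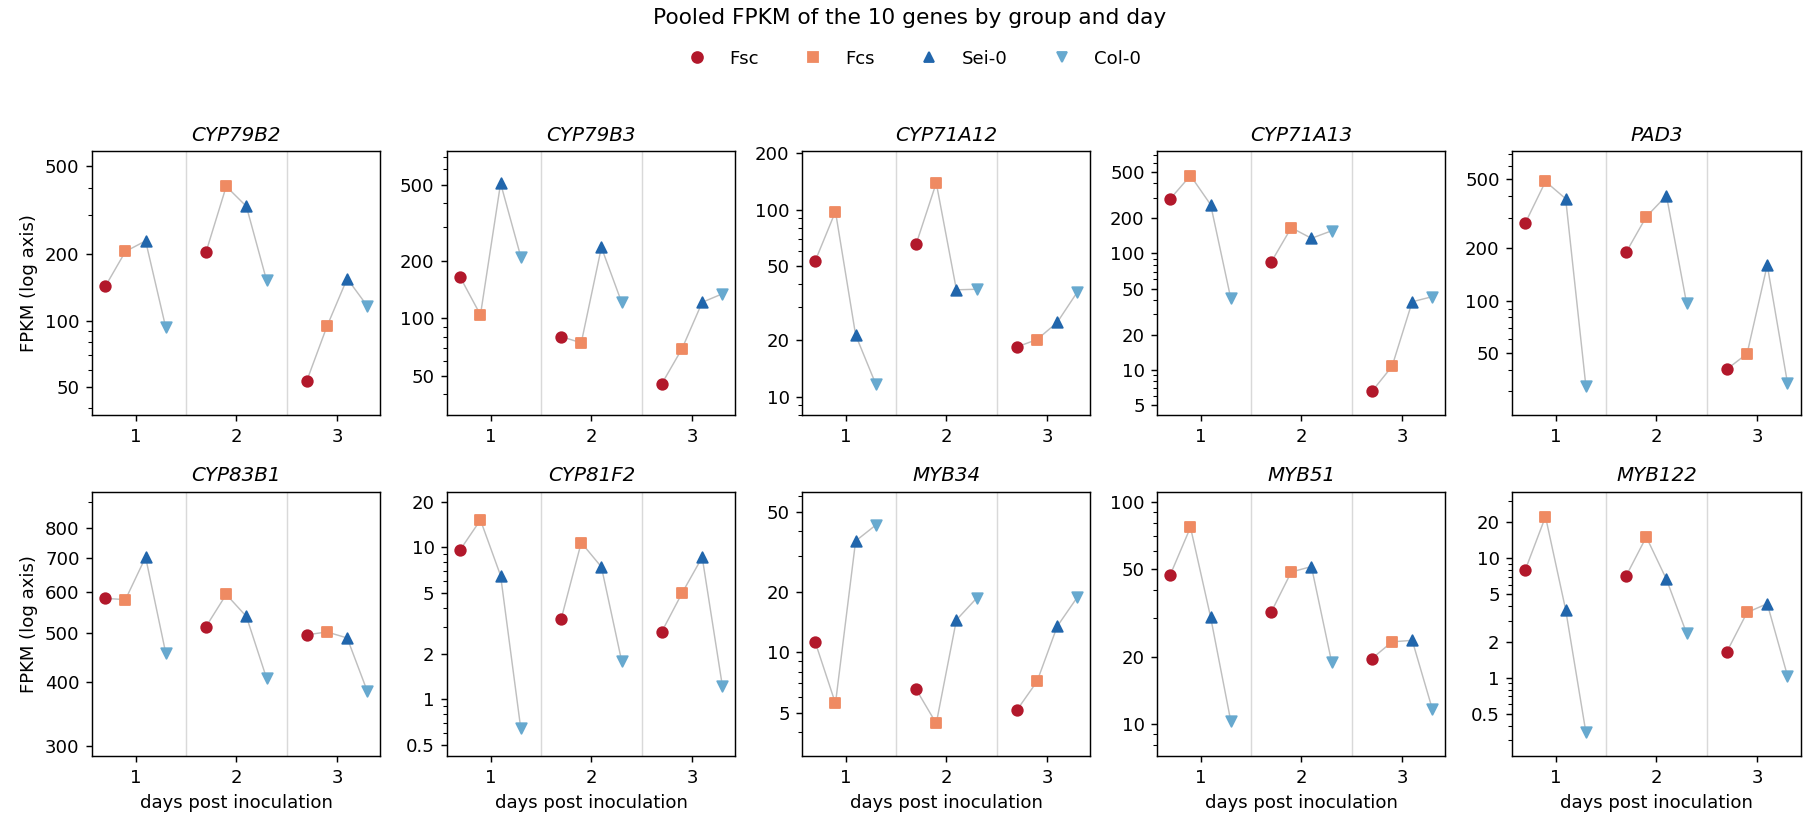
Pooled FPKM (log axis, a different range in each panel) of the 10 genes, with the groups Fsc, Fcs, Sei-0 and Col-0 from left to right within each day; a point is 1 deposited value over 3 libraries, and grey lines join the groups of a day. At 1 dpi the hybrids of CYP71A12 stand highest, at 53.3 and 97.7, and those of MYB34 lowest, at 11.2 and 5.56, while at 3 dpi the hybrids of CYP71A13 lie at 6.56 and 10.8, under both parents.

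At the entry of both pathways, the near copies CYP79B2 and CYP79B3 were placed differently in the hybrids. CYP79B2 had 143 FPKM in Fsc and 205 in Fcs at 1 dpi, against 229 in Sei-0 and 93.0 in Col-0. At 2 dpi CYP79B2 had 204 in Fsc and 405 in Fcs, against 329 in Sei-0 and 152 in Col-0. Both hybrids thus lay between the parents at 1 dpi, and at 2 dpi Fsc lay between them and Fcs 1.23-fold above Sei-0. At 3 dpi CYP79B2 had 53.5 in Fsc and 94.3 in Fcs, against 155 in Sei-0 and 116 in Col-0, so both hybrids lay below both parents, Fsc by 2.15-fold and 2.86-fold and Fcs by 1.23-fold and 1.64-fold.

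CYP79B3 lay below both parents in both hybrids on all 3 days. It had 164 FPKM in Fsc and 104 in Fcs at 1 dpi, against 508 in Sei-0 and 210 in Col-0. At 2 dpi CYP79B3 had 80.3 in Fsc and 74.3 in Fcs, against 235 in Sei-0 and 121 in Col-0. At 3 dpi CYP79B3 had 45.5 in Fsc and 69.3 in Fcs, against 121 in Sei-0 and 134 in Col-0. Against Sei-0, Fsc was 3.09-fold lower at 1 dpi, 2.90-fold at 2 dpi and 2.63-fold at 3 dpi. Against Col-0, Fsc was 1.28-fold lower at 1 dpi and 1.51-fold at 2 dpi, and at 3 dpi Fcs was 1.74-fold lower than Sei-0, so CYP79B3 was not among the genes counted at 2-fold below both.

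Of the summed FPKM of the 2 entry genes, CYP79B2 held a larger share in both hybrids than in either parent at 1 and 2 dpi. At 1 dpi its share was 46.6% of 306 FPKM in Fsc and 66.3% of 310 in Fcs, against 31.1% of 737 in Sei-0 and 30.7% of 303 in Col-0. The hybrids thus had a summed level near that of Col-0 with a different make-up. At 2 dpi the share was 71.8% in Fsc and 84.5% in Fcs, against 58.3% in Sei-0 and 55.6% in Col-0. At 3 dpi the shares lay close together, at 54.0% in Fsc and 57.6% in Fcs, against 56.1% in Sei-0 and 46.4% in Col-0, while the sums were 99.0 and 164 in Fsc and Fcs, against 276 in Sei-0 and 250 in Col-0.

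On the camalexin branch, CYP71A12 was the 1 gene at 2-fold over both parents on the first day. It had 53.3 FPKM in Fsc and 97.7 in Fcs, against 21.4 in Sei-0 and 11.7 in Col-0. Fsc was 2.43-fold above Sei-0 and 4.29-fold above Col-0, and Fcs was 4.42-fold and 7.80-fold above them. At 2 dpi CYP71A12 had 65.3 in Fsc and 139 in Fcs, against 37.2 in Sei-0 and 37.5 in Col-0, so the parents were level, Fsc was 1.72-fold above Col-0 and Fcs 3.64-fold. At 3 dpi CYP71A12 had 18.4 in Fsc and 20.2 in Fcs, against 24.9 in Sei-0 and 36.3 in Col-0, with both hybrids now below both parents, by 1.22-fold to 1.92-fold.

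CYP71A13, the copy with the higher level in every group at 1 and 2 dpi, crossed over further. It had 295 FPKM in Fsc and 466 in Fcs at 1 dpi, against 262 in Sei-0 and 41.1 in Col-0. The hybrids were 1.12-fold and 1.77-fold above Sei-0, the higher parent. At 2 dpi CYP71A13 had 84.1 in Fsc and 166 in Fcs, against 135 in Sei-0 and 156 in Col-0, with Fsc below both parents and Fcs above both. At 3 dpi CYP71A13 had 6.56 in Fsc and 10.8 in Fcs, against 38.5 in Sei-0 and 42.7 in Col-0. Fsc was then 5.22-fold lower than Sei-0 and 5.77-fold lower than Col-0, and Fcs 3.36-fold and 3.71-fold lower.

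The share of CYP71A12 in the summed FPKM of the pair went with this. At 1 dpi it was 15.3% in Fsc and 17.3% in Fcs, against 7.53% in Sei-0 and 22.1% in Col-0, so the hybrids lay between the parents. At 2 dpi it was 43.7% in Fsc and 45.6% in Fcs, against 21.6% in Sei-0 and 19.4% in Col-0. At 3 dpi it was 73.7% in Fsc and 65.2% in Fcs, against 39.3% in Sei-0 and 45.9% in Col-0, and the sums were 25.0 and 31 in Fsc and Fcs, against 63.4 in Sei-0 and 78.9 in Col-0. From 2 dpi on, both hybrids thus held a larger share of CYP71A12 than either parent.

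PAD3, the last enzyme of camalexin synthesis, had the largest difference between the parents of the 10 genes at 1 dpi. It had 280 FPKM in Fsc and 486 in Fcs, against 387 in Sei-0 and 32.4 in Col-0. On the log2 scale of FPKM + 1, where Col-0 is 0% and Sei-0 is 100%, Fsc stood at 86.9% and Fcs at 109%. At 2 dpi PAD3 had 190 in Fsc and 304 in Fcs, against 403 in Sei-0 and 96.4 in Col-0, which is 47.4% and 80.4% of the way. At 3 dpi PAD3 had 40.3 in Fsc and 49.5 in Fcs, against 160 in Sei-0 and 33.7 in Col-0, which is 11.3% and 24.4%. The hybrids were thus near the Sei-0 level on the first day and near the Col-0 level on the last, while the parents stayed more than 4-fold apart on each of the 3 days.

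On the glucosinolate branch, CYP83B1 was the most even of the 10 genes. It had 584 FPKM in Fsc and 580 in Fcs at 1 dpi, against 703 in Sei-0 and 456 in Col-0. At 2 dpi CYP83B1 had 514 in Fsc and 594 in Fcs, against 538 in Sei-0 and 407 in Col-0. At 3 dpi CYP83B1 had 495 in Fsc and 502 in Fcs, against 488 in Sei-0 and 384 in Col-0. No pair of groups differed by 2-fold on any day, Col-0 was the lowest group on all 3, and the hybrids lay within 0.33 of the mid-parent value on the log2 scale.

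CYP81F2, the other gene of this branch, was low in Col-0 throughout. It had 9.67 FPKM in Fsc and 15.2 in Fcs at 1 dpi, against 6.52 in Sei-0 and 0.643 in Col-0. At 2 dpi CYP81F2 had 3.36 in Fsc and 10.8 in Fcs, against 7.45 in Sei-0 and 1.80 in Col-0. At 3 dpi CYP81F2 had 2.79 in Fsc and 5 in Fcs, against 8.62 in Sei-0 and 1.23 in Col-0. Both hybrids were above both parents at 1 dpi, 1.42-fold and 2.15-fold over Sei-0, and both lay between the parents at 3 dpi. These levels are low, and the added 1 FPKM makes a fold against Col-0 smaller than the ratio of the FPKM values.

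The 3 MYB factors did not move together. MYB34, an activator of tryptophan and indole glucosinolate genes, had 11.2 FPKM in Fsc and 5.56 in Fcs at 1 dpi, against 35.8 in Sei-0 and 42.9 in Col-0. Fsc was 3.01-fold lower than Sei-0 and 3.60-fold lower than Col-0, and Fcs 5.60-fold and 6.70-fold lower. At 2 dpi MYB34 had 6.54 in Fsc and 4.42 in Fcs, against 14.5 in Sei-0 and 18.6 in Col-0, and the smallest of the 4 differences was 2.05-fold. At 3 dpi MYB34 had 5.15 in Fsc and 7.15 in Fcs, against 13.4 in Sei-0 and 18.8 in Col-0. It lay below both parents in both hybrids on all 3 days, as CYP79B3 did.

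MYB51, a regulator of indole glucosinolates in shoots that responds to pathogens, was at the opposite side at 1 dpi. It had 46.9 FPKM in Fsc and 76.7 in Fcs, against 30.2 in Sei-0 and 10.3 in Col-0, so the hybrids were 1.54-fold and 2.49-fold above Sei-0. At 2 dpi MYB51 had 31.8 in Fsc and 48.2 in Fcs, against 51.0 in Sei-0 and 19.0 in Col-0. At 3 dpi MYB51 had 19.7 in Fsc and 23.4 in Fcs, against 23.7 in Sei-0 and 11.6 in Col-0. On the last 2 days both hybrids lay between the parents.

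MYB122, the least abundant of the MYB factors in most groups, had 8.03 FPKM in Fsc and 22.3 in Fcs at 1 dpi, against 3.72 in Sei-0 and 0.354 in Col-0. Fcs was 4.94-fold above Sei-0 and 17.2-fold above Col-0, and Fsc 1.91-fold and 6.67-fold. At 2 dpi MYB122 had 7.13 in Fsc and 15.1 in Fcs, against 6.68 in Sei-0 and 2.36 in Col-0. At 3 dpi MYB122 had 1.66 in Fsc and 3.53 in Fcs, against 4.18 in Sei-0 and 1.05 in Col-0. Both hybrids were above both parents at 1 and 2 dpi and between them at 3 dpi.

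The make-up of the 3 factors differed more than their sum. MYB34 held 16.9% of 66.1 FPKM in Fsc and 5.31% of 105 in Fcs at 1 dpi, against 51.3% of 69.7 in Sei-0 and 80.2% of 53.5 in Col-0. At 2 dpi MYB34 held 14.4% in Fsc and 6.52% in Fcs, against 20.1% in Sei-0 and 46.5% in Col-0. At 3 dpi MYB34 held 19.5% in Fsc and 21% in Fcs, against 32.5% in Sei-0 and 59.7% in Col-0. On each day the share was lower in both hybrids than in either parent, and it was highest in Col-0.

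**Figure D2:**
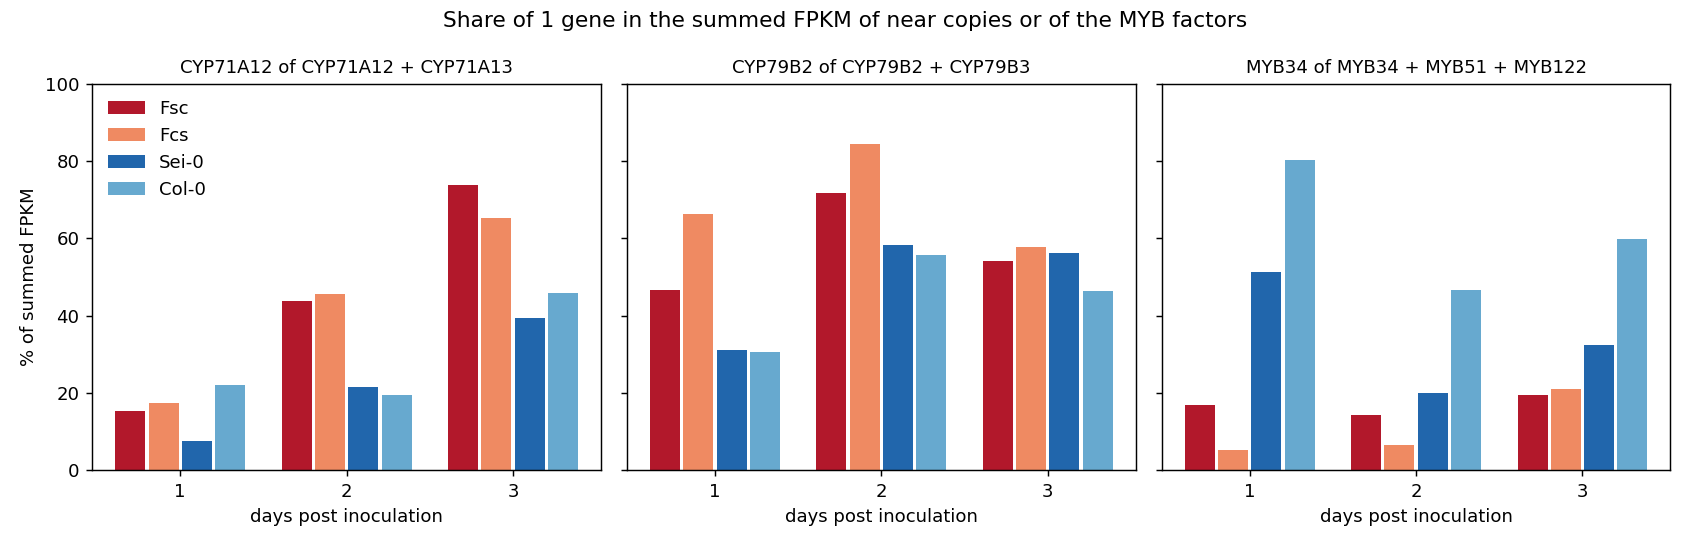
Share of 1 gene in a summed FPKM (bars, % from 0 to 100) in Fsc, Fcs, Sei-0 and Col-0, from left to right, at 1, 2 and 3 dpi: CYP71A12 of the CYP71A12 and CYP71A13 pair, CYP79B2 of the CYP79B2 and CYP79B3 pair, and MYB34 of the 3 MYB factors. The share of CYP71A12 reached 73.7% in Fsc at 3 dpi, and that of MYB34 was 5.31% in Fcs and 80.2% in Col-0 at 1 dpi.

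Against the mid-parent value, the mean FPKM of the parents, the median of the 10 genes was lower on each later day. The median log2 ratio over the 10 genes at 1 dpi stood at 0.69 in Fsc and 1.41 in Fcs. At 2 dpi it was -0.30 in Fsc and 0.39 in Fcs, and at 3 dpi -0.98 in Fsc and -0.55 in Fcs. By the mean of both hybrids, 7 of the 10 genes stood lower against the mid-parent value at 3 dpi than at 1 dpi. The other 3 stood higher, at -2.17 (1 dpi) and -1.27 (3 dpi) for MYB34, -1.45 and -1.17 for CYP79B3, and 0.0063 and 0.19 for CYP83B1. The share of all genes that stood lower at 3 dpi than at 1 dpi was not computed, so the count of 7 has no background. The median over all genes lay between -0.031 and -0.016 in both hybrids on all 3 days. Set against the higher parent of each gene instead, the median at 1 dpi was -0.0497 in Fsc and 0.58 in Fcs, so the direction in Fsc depended on that choice.

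**Figure D3:**
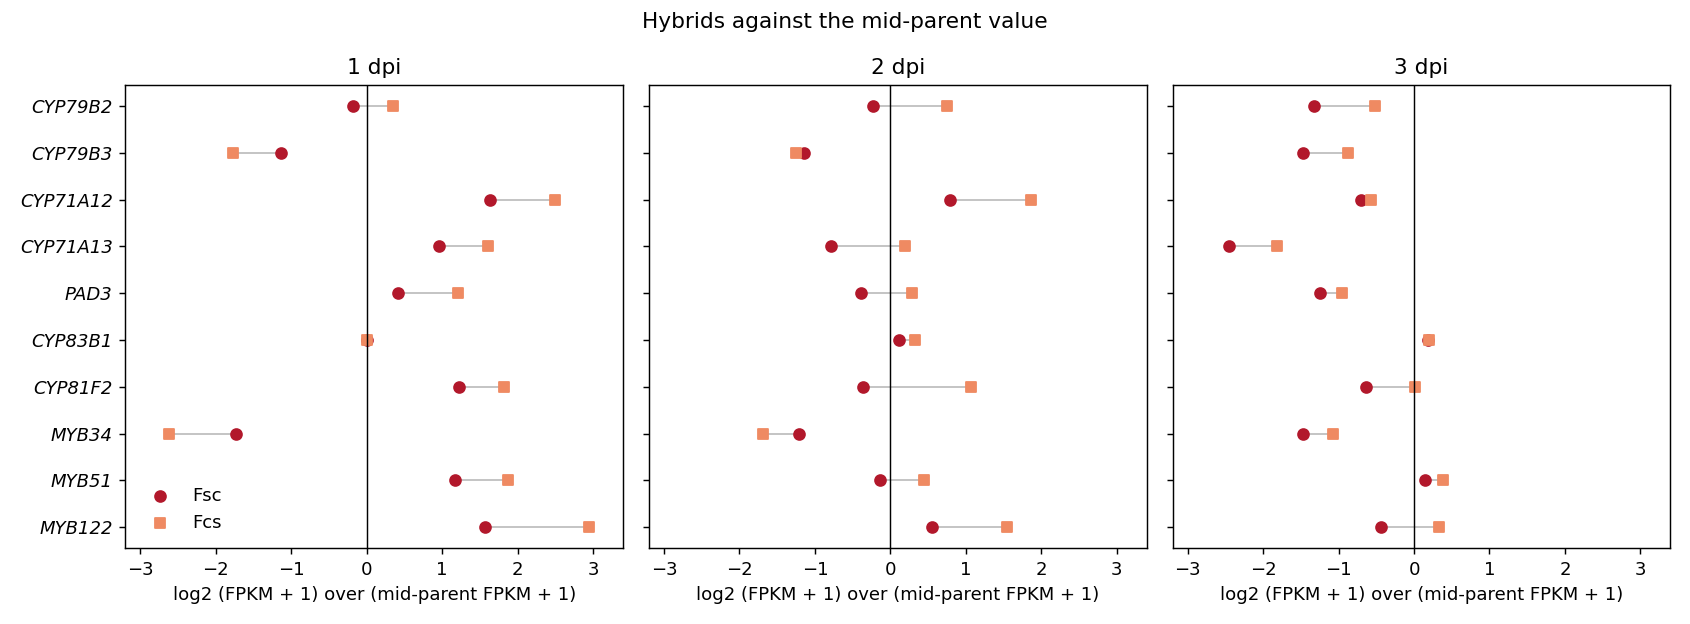
Log2 of hybrid FPKM + 1 over mid-parent FPKM + 1 for each of the 10 genes, Fsc as circles and Fcs as squares, at 1, 2 and 3 dpi, with a grey line joining the hybrids and a vertical line at the mid-parent value. At 1 dpi Fcs runs up to 2.94 for MYB122, and MYB34 lies at -2.62, while at 3 dpi CYP71A13 lies at -2.46 in Fsc and -1.82 in Fcs.

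The third comparison is between the reciprocal hybrids, which carry the same nuclear genomes from opposite mothers. Fsc was at least 2-fold lower than Fcs in 1 of the 10 genes at 1 dpi, against 1.70% of all genes, in 2 at 2 dpi, against 1.81%, and in none at 3 dpi, against 1.76%. The gene at 1 dpi was MYB122, 2.58-fold higher in Fcs, and those at 2 dpi were CYP71A12, 2.11-fold higher in Fcs, and CYP81F2, 2.70-fold. None of the 10 was at least 2-fold higher in Fsc than in Fcs on any day, against 0.993% (1 dpi), 0.808% (2 dpi) and 0.869% (3 dpi) of all genes. By any amount, Fsc lay below Fcs in 7 of the 10 genes at 1 dpi (51.8% of all genes), in 8 at 2 dpi (49.7%) and in 10 at 3 dpi (49.5%). At 1 dpi the remaining 3 were CYP79B3, CYP83B1 and MYB34, at log2 ratios of Fsc to Fcs of 0.65, 0.0086 and 0.89, and at 2 dpi CYP79B3 and MYB34, at 0.11 and 0.48. Over all genes the log2 ratio of Fsc to Fcs had a spread, as an SD scaled from the median absolute deviation over genes, of 0.28 at 1 dpi, 0.26 at 2 dpi and 0.23 at 3 dpi. That spread is over genes and not over libraries.

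The other genes of these pathways were read from 5 lists, also chosen with earlier results of these data known. There were 45 genes in all, of which 43 passed the level of 1 FPKM at 1 and 2 dpi and 44 at 3 dpi. None of them was at least 2-fold above both parents in both hybrids on any day, against 1.71%, 0.450% and 0.955% of all genes at 1, 2 and 3 dpi, and 2, 0 and 3 were below both, against 1.67%, 0.770% and 2.39%. With so small shares over all genes, a count of 0 among 43 is near the background. Between the parents, 19 of 43 genes were at least 2-fold higher in Sei-0 than in Col-0 on the first day, 6 of 43 on the second and 4 of 44 on the third, against 6.72%, 5.54% and 4.54% of all genes. Those at least 2-fold lower in Sei-0 numbered 3, 3 and 4, against 8.21%, 7.42% and 6.95%, which is near the background. Fsc was at least 2-fold lower than Fcs in 2, 4 and 3 of them, against 1.70%, 1.81% and 1.76%, and higher in 2, 1 and 0, against 0.993%, 0.808% and 0.869%.

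Of the 8 genes of tryptophan supply, 6 were at least 2-fold higher in Sei-0 than in Col-0 at 1 dpi, ASA1, PAT1, PAI1, IGPS, TSA1 and TSB1, against 6.72% of all genes. At 2 dpi 2 of the 8 were (ASA1 and PAI1), against 5.54%, and at 3 dpi 1 was (PAI1), against 4.54%. ASA1, the feedback-controlled first enzyme of tryptophan synthesis, had 211 FPKM in Fsc and 385 in Fcs at 1 dpi, against 354 in Sei-0 and 91.3 in Col-0, and it is named here after its values were seen. ASB1, the other subunit of that enzyme, stood highest of the list against the mid-parent value at 1 dpi, with 98.1 in Fsc and 152 in Fcs, against 92.3 in Sei-0 and 58.4 in Col-0. TSB2, a beta subunit of tryptophan synthase, stood lowest, with 29.3 in Fsc and 35.2 in Fcs, against 65.2 in Sei-0 and 36.8 in Col-0. The locus of ASB1 is merged with a neighbour in the deposited tables, so its value may include other transcripts.

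The 8 genes that follow CYP83B1 in glucosinolate synthesis had a median against the mid-parent value of -0.51 on the log2 scale in Fsc and -0.25 in Fcs at 1 dpi. GSTF10, a glutathione transferase, stood highest of them, with 708 FPKM in Fsc and 680 in Fcs, against 959 in Sei-0 and 314 in Col-0. APK1, which makes the sulphate donor for the last step, was below both parents in both hybrids at 1 dpi, with 130 in Fsc and 125 in Fcs, against 409 in Sei-0 and 330 in Col-0. At 2 dpi APK1 had 152 and 157 in Fsc and Fcs, against 191 in Sei-0 and 192 in Col-0, no longer 2-fold apart.

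Among the genes that modify the indole ring, the relatives of CYP81F2 differed among themselves. CYP81F4 stood lowest of its list at 1 dpi, with 1.97 FPKM in Fsc and 0.283 in Fcs, against 0.427 in Sei-0 and 10.7 in Col-0. CYP81F1 was below both parents in both hybrids at 3 dpi, with 3.80 in Fsc and 12.2 in Fcs, against 49.6 in Sei-0 and 118 in Col-0. Both relatives were lower in Sei-0 than in Col-0 at 1 and 3 dpi, the reverse of CYP81F2. CYP81F3 was 2.45-fold higher in Sei-0 than in Col-0 at 3 dpi, the same direction as CYP81F2. It had 4.02 in Fsc and 5.12 in Fcs on that day, against 7.52 in Sei-0 and 2.48 in Col-0. At 1 dpi CYP81F3 ran the other way, with 3.93 in Sei-0 and 4.96 in Col-0, and at 2 dpi it had 7.23 in Sei-0 and 3.93 in Col-0. CYP81F3 is named after its values were seen. IGMT4, a member of the indole glucosinolate methyltransferase family, stood highest of the list at 1 dpi, with 51.7 in Fsc and 77.7 in Fcs, against 28.9 in Sei-0 and 29.8 in Col-0.

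The genes of camalexin conjugation and regulation had medians near those of the 10 genes, at 0.72 (Fsc) and 1.32 (Fcs) on the first day and -1.09 (Fsc) and -0.56 (Fcs) on the last, on the log2 scale against the mid-parent value. AAO1, an aldehyde oxidase, stood highest at 1 dpi, with 15.3 FPKM in Fsc and 30.8 in Fcs, against 9.13 in Sei-0 and 3.47 in Col-0, and at 3 dpi it had 7.25 and 13 against 18.6 and 14.4. GSTU4, a glutathione transferase, had 71.9 in Fsc and 116 in Fcs at 3 dpi, against 346 in Sei-0 and 321 in Col-0. GH3.5, which joins amino acids to auxin and to intermediates of camalexin, stood lowest at 1 dpi, with 2.30 in Fsc and 5.12 in Fcs against 9.96 in Sei-0 and 3.05 in Col-0, and at 3 dpi it had 3.45 and 17.2 against 121 and 133. GSTU4 and GH3.5 were thus below both parents in both hybrids at 3 dpi, as CYP71A13 was.

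Of the genes for breakdown, transport and partners of the MYB factors, ABCG40, a transporter of abscisic acid that also takes part in the export of camalexin, stood highest at 1 dpi. ABCG40 had 193 FPKM in Fsc and 247 in Fcs at 1 dpi, against 112 in Sei-0 and 13.5 in Col-0, and 12.5 and 29.8 at 3 dpi, against 90.2 and 45.9. MYC4, a bHLH factor that binds the glucosinolate MYB proteins, stood lowest and was below both parents in both hybrids at 1 dpi, with 9.84 in each hybrid, against 22.0 in Sei-0 and 29.0 in Col-0.

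**Figure D4:**
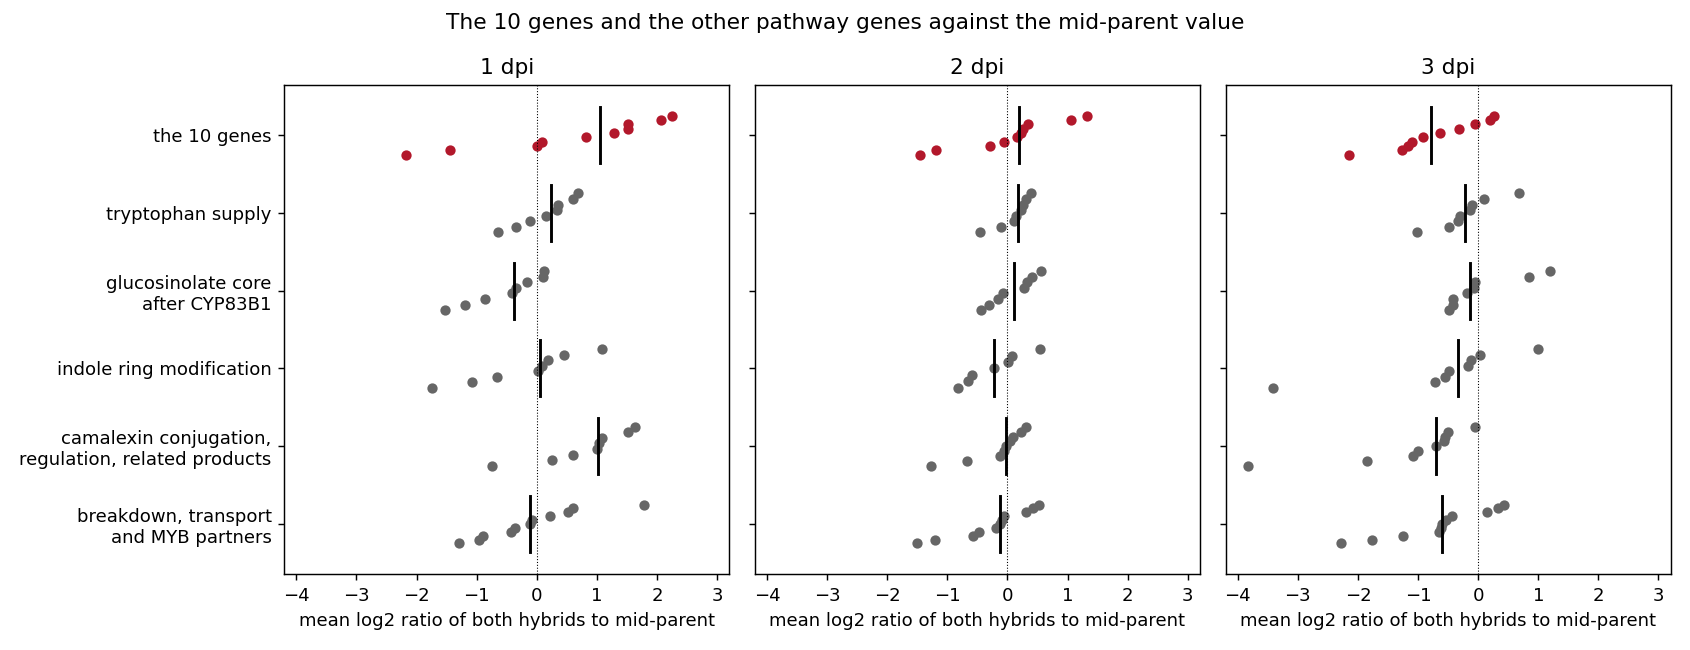
Mean log2 ratio of both hybrids to the mid-parent value for the 10 genes (red) and for 5 lists of other pathway genes (grey) at 1, 2 and 3 dpi, with 1 point per gene past the level of 1 FPKM and a black bar at each list's median. At 1 dpi the 10 genes spread from -2.17 for MYB34 to 2.26 for MYB122, and at 3 dpi all points of the camalexin list lie left of 0.

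The genes most like PAD3 and CYP83B1 were looked up over the 12 group values, with each day centred on its mean, among 13839 genes with an FPKM of at least 5 in at least 1 group on each day. These correlations are descriptions over 12 pooled values that share 4 genotypes, with a very large number of genes compared. Closest to PAD3 were SNM1 (AT3G26680), at a Pearson r of 0.986, AT4G24030 at 0.986, AT5G63260 at 0.985, AT1G03370 at 0.983 and AT5G25930 at 0.982. AT5G25930 had 36.2 FPKM in Fsc and 48.2 in Fcs at 1 dpi, against 48.2 in Sei-0 and 8.33 in Col-0, and 11.8 and 17.7 at 3 dpi against 33.4 and 12.1, the course of PAD3 at a lower level. Of the other members, CYP81F2 had an r of 0.93 with PAD3 (place 260 of the genes), MYB51 0.88, CYP79B2 0.79, CYP83B1 0.75, CYP71A13 0.70, CYP71A12 0.55, CYP79B3 0.12 and MYB34 -0.43. MYB122 did not reach 5 FPKM on each day and was left out.

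Closest to CYP83B1 were CAD1 (AT5G44070), which makes phytochelatins, and ERD15 (AT2G41430), both at an r of 0.944, then AT2G02400 at 0.938, AT2G20600 at 0.937 and AT3G29775 at 0.936. CAD1 had 78.6 FPKM in Fsc and 81.2 in Fcs at 1 dpi, against 87.6 in Sei-0 and 60.6 in Col-0. AT2G20600 and AT3G29775 were at or near 0 in Col-0 on each day, 0 and 0.0743 at 1 dpi, against 15.3 and 46.9 in Sei-0. For CYP83B1 and for each of these 5 genes, Col-0 was the lowest group at 1 dpi. No other member was among the 5 closest to either gene.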

How the data were processed

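Leaf mRNA of 36 samples in 12 groups was sequenced. By the study's methods, the authors removed adapters and low-quality reads, aligned the rest to TAIR10, the Col-0 genome, with TopHat (the labels name Bowtie), and ran Cufflinks, Cuffmerge and Cuffdiff with a Poisson fragment distribution; the versions are not given in the sources used here. The deposited FPKM values are 1 per group and day, pooled by the authors over 3 libraries, in 3 tables of 33557 genes. Reads of Sei-0 alleles were thus aligned to the Col-0 sequence. The tables also hold the authors' own comparisons of the groups (fold changes, test statistics, p-values, q-values and calls), which were not used, so nothing here was tested and leaving out a library could not be tried. Samples were grouped by genotype and day from the labels.

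Ratios were computed as (FPKM + 1) over (FPKM + 1), within a day, and counted at 2-fold among genes with FPKM of at least 1 in at least 1 group. The counting was tested on simulated data. Alternatives were folds of 1.5 and 3, pseudocounts of 0.1 and 5, no filter and a filter of 5 FPKM, scaling of groups to the same median, and the higher parent as the reference. The 10 genes and all lists were chosen with earlier results of these data known. Named by rule were the 10 genes, in each other list the genes highest and lowest against the mid-parent value at 1 dpi and those that differed by 2-fold from each parent in Fsc and Fcs alike, and the 5 genes most correlated with PAD3 and with CYP83B1. Sequences and gene models came from the RefSeq TAIR10.1 assembly, and the gene starts of the upstream windows also drew on the deposited gene bounds. Of 33278 nuclear genes in the tables, 32810 had an entry there and 32809 overlapped it in position. No replicate spread or depth is in these files, so no interval could be given. Python 3.11.15, NumPy 2.4.6, pandas 2.3.3 and Matplotlib 3.10.9 were used.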

Additional observations from a re-analysis of the deposited data

Results flagged for a closer look

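The values of the 10 genes and of the 45 genes of the other lists were searched for genes whose hybrids changed sides against both parents between days, all 4 ratios of a hybrid to a parent being above 1 on one day and below 1 on another, by any amount. None of these differences was tested, and the days come from separately normalized tables, so only ratios within a day were set side by side. For CYP71A12 the mean of the 4 ratios on the log2 scale was 2.12 at 1 dpi, 1.33 at 2 dpi and -0.62 at 3 dpi, a difference of -2.74 for 3 dpi minus 1 dpi and of -1.94 for 3 dpi minus 2 dpi. For CYP71A13 the mean was 1.82 at 1 dpi and -2.14 at 3 dpi, a difference of -3.96. Col-0 was the lower parent of CYP71A12 and CYP71A13 at 1 dpi and the higher one at 3 dpi. Of the other lists, 6 genes were likewise above both parents at 1 dpi and below both at 3 dpi. The difference was -4.12 for ABCG40, -2.60 for FOX1, -2.45 for AAO1, -2.35 for JUB1, -1.58 for WRKY33 and -1.23 for GTR2. SUR1 lay below both parents at 1 dpi and above both at 2 dpi, a difference of 0.63 for 2 dpi minus 1 dpi. The share of all genes that changed sides between days was not computed, so these counts have no background. Each side taken alone was common by any amount. Of all genes, 24.6% had the 2 hybrids over each parent on the first day, and 31.3% had them under each parent on the last.

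At 2 dpi the hybrids lay on opposite sides of both parents for CYP71A13, with 84.1 FPKM in Fsc and 166 in Fcs, against 135 in Sei-0 and 156 in Col-0. The log2 ratio of Fsc to Fcs was -0.98. Of the other lists, FOX1 (-1.23), JUB1 (-0.68), GTR2 (-0.50) and CYP71B6 (-0.35) had Fsc below and Fcs above both parents at 2 dpi, and GTR1 (0.53) and CYP81F3 (0.45) had Fsc above and Fcs below both at 1 dpi. These differences were not tested either, and the share of all genes with hybrids on opposite sides was not computed.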

How the results depend on the processing

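The 24 results were recomputed under 162 alternatives, of which 137 left them alike (counts within 1.5 times, medians within the spread of Fsc over Fcs across genes), 24 moved them and 1 turned the direction. Each recount is followed by the percentage of all genes under the same setting. With a fold of 1.5, genes above both parents in both hybrids became 3 at 1 dpi (CYP71A12, MYB51, MYB122), against 3.89%. At 2 dpi 1 was above, against 1.83%. Genes below both became 2 at 2 dpi, against 2.24%, and 3 at 3 dpi, against 6.05%. At that fold, genes lower in Fsc than Fcs became 6, 7 and 5 at 1, 2 and 3 dpi, against 5.31%, 6.18% and 5.6%. Higher in Fsc were 2 at 1 dpi, against 4.65%. With a fold of 3, those above both parents at 1 dpi became 0 (0.561%), and those below both at 2 dpi 0 (0.201%). Those lower in Fsc than Fcs became 0 at 1 dpi (0.62%) and 0 at 2 dpi (0.466%). Those higher in Sei-0 than Col-0 became 4 at 1 dpi (2.82%) and 2 at 2 dpi (2.41%). A pseudocount of 0.1 gave 2 genes above both parents at 1 dpi (2.3%) and 1 lower in Fsc than Fcs at 3 dpi (3.22%). A pseudocount of 5 gave, at 2 dpi, 0 below both parents (0.461%), 3 higher in Sei-0 (3.04%) and 1 lower in Fsc (0.797%). Against the higher parent, the median of the 10 genes at 1 dpi turned to -0.0497 in Fsc and was 0.58 in Fcs. At 2 dpi it was -0.78 in Fsc and 0.12 in Fcs, and at 3 dpi -1.43 in Fsc. A filter of 5 FPKM moved the median of Fsc at 3 dpi to -1.25. Scaling and dropping the filter moved none. No paired analysis was possible because the tables give 1 pooled value per group. Values per library are not in the tables, so the spread of a gene over libraries is not known. The paper's supplement gives correlations between replicates, lowest in Sei-0 at 3 dpi, and alignment totals per library, which were not used here. The genes gained or lost with the other pseudocounts were CYP81F2, MYB34, MYB51 and MYB122.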

Other observations

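Myrosinases, the enzymes that split glucosinolates when leaf tissue is damaged, differed between the parents. TGG2 had 48.0 FPKM in Fsc and 50.5 in Fcs at 1 dpi, against 0.965 in Sei-0 and 193 in Col-0, and it stayed under 1 in Sei-0 on the other days. At 3 dpi TGG2 had 18.9 in Fsc and 16.3 in Fcs, against 0.525 in Sei-0 and 178 in Col-0. TGG1 had 152 in Fsc and 133 in Fcs at 1 dpi, against 130 in Sei-0 and 236 in Col-0. PEN2, the atypical myrosinase of indole glucosinolates in intact cells, had 121 in Fsc and 116 in Fcs at 1 dpi, against 117 in Sei-0 and 85.3 in Col-0, and PEN3, the transporter that works with it, had 486 and 453 against 436 and 215. WRKY33, the activator of CYP71A13 and PAD3, had 157 in Fsc and 228 in Fcs at 1 dpi, against 127 in Sei-0 and 60.6 in Col-0. At 3 dpi WRKY33 had 55.3 in Fsc and 78.8 in Fcs, against 108 in Sei-0 and 79.8 in Col-0, with both hybrids below both parents by any amount. These genes are named after their values were seen, and the locus of WRKY33 is merged with a neighbour in the tables.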
